A study of Mus musculus with 30 samples.

Results

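Colon RNA of mice that lacked MLKL together with epithelial XBP1 and caspase-8, here called the MLKL triple knockout, was compared with colon RNA of mice that lacked XBP1 alone in the intestinal epithelium, here called the Xbp1 knockout. The comparison asks whether the colon returned to the state of the Xbp1 knockout once necroptosis could not be completed. It took 10 of the 30 libraries of the series, 5 per group and each from 1 mouse, chosen by their genotype labels. All genes with enough reads entered, which were 15458 of the 55487 genes in the table. The MLKL triple knockout is labelled XBP1IEC-KO;Casp8IEC-KO;MLKLKO, with Xbp1 and Casp8 deleted in intestinal epithelial cells (IEC) and Mlkl given with no cell type. The Xbp1 knockout is labelled XBP1IEC-KO, carries the epithelial Xbp1 deletion that both groups share, and has no deletion named for Casp8 or Mlkl. The groups therefore differ by 2 deleted genes, and the double knockout, which has the Casp8 deletion without that of Mlkl, is set beside them. As context served 4 more groups of 5 mice, which share the fit: the double knockout of Xbp1 and Casp8 (XBP1IEC-KO;Casp8IEC-KO), the TNFR1 triple knockout (XBP1IEC-KO;Casp8IEC-KO;TNFR1IEC-KO), the Casp8 knockout (Casp8IEC-KO) and WT. Neither the labels nor the protocols name the Cre driver, the deleted exons, the strain, the age of the mice or the part of the colon.

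XBP1 is a transcription factor of the unfolded protein response that expands the secretory pathway, on which mucus-making goblet cells depend. Caspase-8 starts apoptosis downstream of death receptors and also cleaves the kinases RIPK1 and RIPK3. Where caspase-8 is missing, RIPK3 can phosphorylate MLKL, which then permeabilises the plasma membrane, a lytic death called necroptosis that releases inflammatory cell contents. Loss of caspase-8 from the gut epithelium is known to cause epithelial necroptosis and inflammation in mice.

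The libraries were 3′ tag libraries, in which reads come from the end of a transcript, and levels are given in CPM, the count scaled to the library's total reads. Totals ran from 3835605.6 to 5062316.7 reads in the MLKL triple knockout and from 4316399.5 to 4892575.7 in the Xbp1 knockout, so that 1 read was worth about 0.229 CPM. Colon genes were abundant in both groups, such as the chloride-bicarbonate exchanger Slc26a3, at 985 to 1937 CPM in MLKL triple knockout mice and 1388 to 2676 CPM in Xbp1 knockout mice. Reads of Xist and of Y-linked genes marked 5 of 5 MLKL triple knockout mice as female, against 3 females (replicates 2, 3 and 5) and 2 males (replicates 1 and 4) in the Xbp1 knockout. Mitochondrially encoded genes took 16.5 ± 2.57% of reads in the MLKL triple knockout and 19.7 ± 2.07% in the Xbp1 knockout (SD, n = 5 each; exact permutation test, two-sided, p = 0.0714). Replicate 5 of both groups carried a strong interferon signature, described below with the interferon genes.

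The targeted genes were read first. Casp8 (ENSMUSG00000026029, GRCm38 chromosome 1, 58795374 to 58847503) stood at 19, 18.7, 12.2, 15.9 and 29.6 CPM in MLKL triple knockout replicates 1 to 5, and at 50.9, 21.1, 61.7, 45.0 and 66.7 CPM in Xbp1 knockout replicates 1 to 5. It fell by 1.37 ± 0.238 on the log2 scale (SE; adjusted p = 0.0122, edgeR's quasi-likelihood F test with Benjamini-Hochberg adjustment over all genes tested). By label Casp8 is deleted in epithelial cells, while RNA of all colon cells was read. The groups overlapped through 1 library, the one labelled Xbp1_KO replicate 2, whose value goes against its label. Mlkl (ENSMUSG00000012519, chromosome 8, 111311797 to 111338177) stood at 1.30, 2.76, 4.38, 3.59 and 10.7 CPM in MLKL triple knockout mice and at 8.04, 14.4, 9.53, 8.48 and 34.1 CPM in Xbp1 knockout mice. The fifth library of each group was its highest, and the one labelled Xbp1_Casp8_Mlkl_KO replicate 5 exceeded 3 of the Xbp1 knockout libraries. The difference in Mlkl did not pass (−1.72 ± 0.458, adjusted p = 0.309 by edgeR). Without the libraries labelled Xbp1_KO replicate 2 and Xbp1_Casp8_Mlkl_KO replicate 5, from here on called the 2 doubted libraries, the log2 fold change was −1.77 for Casp8 (adjusted p = 2.50e-05 by edgeR) and −2.30 for Mlkl (adjusted p = 0.0785). Xbp1 tags, at 62.6 to 88.1 CPM in MLKL triple knockout mice and 51.1 to 65.1 CPM in Xbp1 knockout mice, check nothing about a deletion that both groups share, since the tags may lie outside the deleted exons (0.42 ± 0.204 on the log2 scale, adjusted p = 0.575).

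Across all genes the colon of the MLKL triple knockout differed little from that of the Xbp1 knockout. At an adjusted p under 0.05, 10 of 15458 genes differed (0.0647%), of which 8 were lower (0.0518%) and 2 higher (0.0129%) in the MLKL triple knockout, and 7 of the 10 passed a 2-fold change. The double knockout, set against the same Xbp1 knockout libraries in the same fit, differed from them in 1335 genes (8.64%), with 738 higher (4.77%) and 597 lower (3.86%), and 359 passed a 2-fold change. The MLKL triple knockout differed from the double knockout in 1182 genes (7.65%), with 531 higher (3.44%) and 651 lower (4.21%). From WT it differed in 132 genes (0.854%), with 53 higher (0.343%) and 79 lower (0.511%). In both of these comparisons sex ran nearly with genotype. All MLKL triple knockout mice were female, 4 of the 5 double knockout mice were male, and replicate 3 was the only female of WT. Against the double knockout 1 gene of the sex-linked list was higher and 4 were lower. Neither comparison was run with sex in the model. The log2 fold changes of all genes between the MLKL triple and the Xbp1 knockout had a median of 0.01, quartiles of −0.15 and 0.15 and an SD of 0.329, while those between the double and the Xbp1 knockout had an SD of 0.481. These comparisons share libraries, so their numbers are set side by side and no overlap between them was taken. The count for the double knockout against the Xbp1 knockout was 822, 935 and 748 without Xbp1 knockout replicates 1, 3 and 4, and 1420 with sex in the model. No count is given in females only, since 4 of the 5 double knockout mice were male and 1 was left there. That fit cannot decide whether the difference holds in females. RNA of the whole colon was measured, in which fewer cells of a type and less RNA per cell cannot be told apart.

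A missed threshold does not show that 2 groups are alike, so the interval of each difference was read as well. For 13015 genes (84.2%) the 95% interval of the log2 fold change between the MLKL triple and the Xbp1 knockout lay within 1 of 0, and a 2-fold difference is outside what those intervals cover. The same held for 12093 genes (78.2%) between the double and the Xbp1 knockout. For the remaining genes the interval reached past a 2-fold difference in at least 1 direction. At an unadjusted p under 0.05 there were 1320 genes (8.54%), with 717 higher (4.64%) and 603 lower (3.90%), and the smallest adjusted p above the threshold was 0.147.

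Without the 2 doubted libraries the count was 12, with 1 gene higher and 11 lower, and 9 of the 10 genes were still among them. Lost was Gm26770 (adjusted p = 0.0569), and added were Mfap4, a matrix protein of elastic fibres (−0.94, adjusted p = 0.0244), the transcription factor Maf (−0.78, adjusted p = 0.0316) and the scavenger receptor Scara3 (−1.16, adjusted p = 0.0332), all by edgeR and named after their values were seen. The count rests on single libraries in both groups. It was 2, 1, 1, 2 and 5 without MLKL triple knockout replicates 1 to 5 in turn, and 5, 11, 4, 5 and 2 without Xbp1 knockout replicates 1 to 5. With the sex of the mouse in the model 3 genes differed, and in females only, with 3 Xbp1 knockout mice left, 2. Gene by gene, the call held under 21 of 22 alternatives for BC064078, 18 of 23 for Mt2, 15 of 23 for Casp8 and 13 of 23 for Rhno1, and under 4 to 10 for each of the other 5 genes described below.

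Libraries were also placed whole. On the first principal component, which held 29.4% of the variance over the 30 libraries, the MLKL triple knockout lay at −2.38 ± 11.3 and the Xbp1 knockout at −3.86 ± 9.30 (SD, n = 5 each), a difference of 1.48 (exact permutation test, two-sided, p = 0.849). The sign of that difference turned without the 2 doubted libraries (−1.68), without MLKL triple knockout replicate 5 (−3.41) and without Xbp1 knockout replicate 1 (−1.24). The double knockout lay at 25.4 ± 11.3 and WT at −20.3 ± 4.59. MLKL triple knockout replicate 5, at 17.2, was the only one of its group inside the double knockout range of 13.6 to 41.0. The second component, with 14.6% of the variance, parted the sexes.

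**Figure D1:**
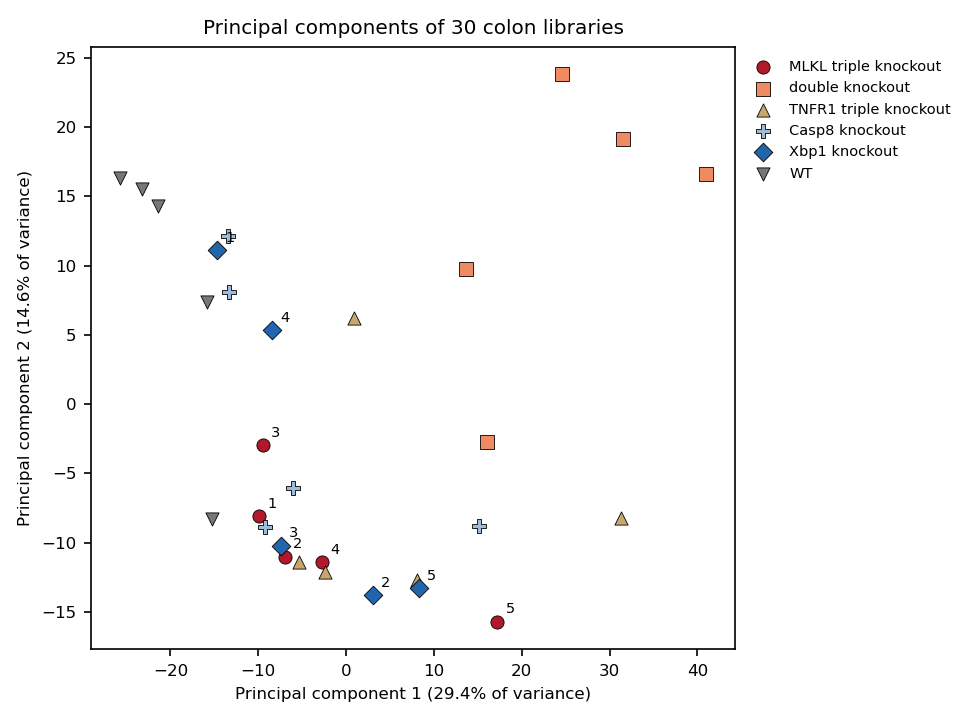
Principal components 1 and 2 of the 1000 most variable genes in all 30 libraries, 1 point per mouse, with replicate numbers beside the MLKL triple and Xbp1 knockout points. The MLKL triple knockout points run from −9.93 to 17.2 on component 1 and the Xbp1 knockout points from −14.7 to 8.25, while the double knockout points run from 13.6 to 41.0.

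Over all genes tested, the root mean square difference in log2 CPM from the mean of the Xbp1 knockout was 0.426, 0.372, 0.541, 0.432 and 0.460 in MLKL triple knockout replicates 1 to 5, against 0.357 to 0.461 for Xbp1 knockout libraries from the mean of the other 4. The same 5 MLKL triple knockout libraries lay 0.523 to 0.622 from the mean of the double knockout and 0.445 to 0.574 from the mean of WT. Over all genes each of the 5 was thus nearest to the Xbp1 knockout of these 3 means, with a small margin for replicate 3, 0.541 against 0.545 to WT. Over the 1000 most variable genes 4 of the 5 were, and replicate 3 lay nearer to WT, at 1.13, than to the Xbp1 knockout, at 1.15. Over those genes Xbp1 knockout replicate 1 also lay nearer to WT, at 0.795, than to the rest of its own group, at 1.01. The measure does not part the groups cleanly, since double knockout replicate 2 and WT replicate 3 also lay nearest to the Xbp1 knockout mean, and Xbp1 knockout replicate 1 lay 0.414 from both its own group's mean and that of WT.

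Of the 10 genes that differed, the metallothionein Mt2 was the most abundant. Metallothioneins are small cysteine-rich proteins that bind zinc and copper, and the transcription factor MTF1 switches them on through metal response elements. Mt2 (ENSMUSG00000031762, chromosome 8, 94172664 to 94173568) stood at 61.8, 65.7, 70.1, 100 and 93.2 CPM in MLKL triple knockout mice and at 432, 453, 378, 448 and 202 CPM in Xbp1 knockout mice. Every MLKL triple knockout library lay below every Xbp1 knockout library, the closest being Xbp1 knockout replicate 5. Mt2 fell by 2.29 ± 0.398 on the log2 scale (adjusted p = 0.0122 by edgeR), and by 2.29 without the 2 doubted libraries (adjusted p = 0.0316). The call held without 7 of the 10 libraries in turn and with sex in the model (−2.06, adjusted p = 0.0431). It ended without MLKL triple knockout replicate 1, 2 or 3 (adjusted p = 0.0547, 0.0531 and 0.0771, with log2 fold changes of −2.22 to −2.25) and in females only (−2.14, adjusted p = 0.0826). The double knockout, at 104 to 750 CPM, had 0.09 against the Xbp1 knockout (adjusted p = 0.914), and the MLKL triple knockout lay below the double knockout as well (−2.38, adjusted p = 4.92e-04). WT stood at 94.9 to 226 CPM. Its mean of 164 CPM lay between those of the MLKL triple knockout, 78.2 CPM, and the Xbp1 knockout, 382 CPM.

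Mt1, the neighbouring metallothionein gene 6.42 kb away, stood at 768, 766, 960, 917 and 794 CPM in MLKL triple knockout mice and at 1473, 1884, 1533, 1340 and 1032 CPM in Xbp1 knockout mice. These groups did not overlap, but the difference did not pass over all genes (−0.79 ± 0.206, 95% interval −1.21 to −0.37, adjusted p = 0.309 by edgeR). The ratio within the pair was formed after the levels of both genes had been seen, so it is given as a description with no test. Mt2 stood at 9.32 ± 1.92% of Mt1 in the MLKL triple knockout and at 26.2 ± 5.31% in the Xbp1 knockout (SD, n = 5 each), with ranges of 7.30 to 11.7% and 19.6 to 33.4%. The log2 ratio differed by −1.49, and by −1.60 without the 2 doubted libraries. Low ratios also occurred in double knockout replicate 3, at 10.3%, and Casp8 knockout replicate 3, at 9.05%, while WT ran from 16.7 to 33.0%.

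**Figure D2:**
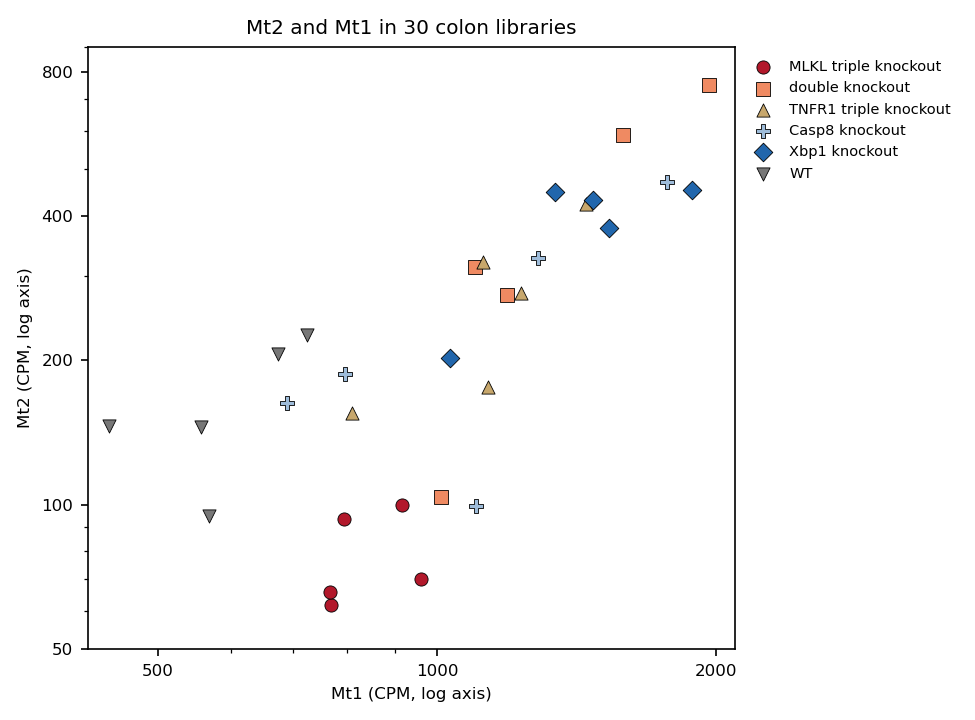
Level of Mt2 against that of Mt1 in CPM, both on log axes, 1 point per mouse in all 6 genotypes. The 5 MLKL triple knockout points lie at 61.8 to 100 CPM of Mt2 and below the Xbp1 knockout points, which lie at 202 to 453 CPM, while on the Mt1 axis the 2 groups are closer.

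The stretches of 250 bases before the RefSeq starts of both genes are shown because the genes are neighbours with a shared regulator and stood in different ratios (RefSeq, GRCm38.p6, plus strand, Mt2 at chr8:94172368-94172617 and Mt1 at chr8:94178839-94179088). Capitals mark matches to the core of the metal response element, searched as TGCACNC and TGCGCNC on both strands.
Mt2: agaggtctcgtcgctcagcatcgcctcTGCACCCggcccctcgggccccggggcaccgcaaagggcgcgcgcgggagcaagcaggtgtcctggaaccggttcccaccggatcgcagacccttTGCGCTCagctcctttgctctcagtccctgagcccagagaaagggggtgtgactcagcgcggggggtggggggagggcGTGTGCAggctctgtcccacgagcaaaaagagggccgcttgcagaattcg
Mt1: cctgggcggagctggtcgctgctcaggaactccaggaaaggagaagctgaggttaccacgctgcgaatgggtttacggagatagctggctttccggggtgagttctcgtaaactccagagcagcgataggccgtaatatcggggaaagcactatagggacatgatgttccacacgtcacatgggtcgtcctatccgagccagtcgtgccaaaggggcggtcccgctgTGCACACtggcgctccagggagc
The Mt2 stretch held 3 matches, which begin 223, 128 and 50 bases before the start, the last of them on the minus strand, and none overlapped another. The Mt1 stretch held 1, which begins 23 bases before the start. Of 32851 promoters of the same length in the table, 21.4% held at least 1 match and 1.26% at least 3. Bases past the RefSeq starts were not searched, so 3 and 1 are counts for these stretches and not for either gene as a whole. A match is a description of letters and not of binding. Whether the matches bear on the ratio of the genes was not tested.

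Other genes of metal handling had smaller differences. Of 11 measured members of the list of metallothioneins and zinc handling genes 1 passed, which was Mt2, and the median log2 fold change was −0.08, beside 0.01 over all genes. Mtf1 itself stood at 39.2 to 65 CPM in MLKL triple knockout mice and 35.7 to 56 CPM in Xbp1 knockout mice (0.18 ± 0.173, adjusted p = 0.802). The zinc exporter gene Slc30a1, another known target of MTF1, had −0.08 ± 0.157 (adjusted p = 0.915). The ranges overlapped for both. Mtf1 and Slc30a1 were chosen after their values were seen.

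Gm37607, which fell as well, lies close to Casp8 on chromosome 1. This gene, a transcript annotated without a coding role (58383512 to 58386134, 0.412 Mb from Casp8), stood at 1.56, 0, 0.974, 1.80 and 1.70 CPM in MLKL triple knockout mice and at 4.87, 1.85, 4.76, 6.60 and 6.86 CPM in Xbp1 knockout mice (−2.06 ± 0.421, adjusted p = 0.0465 by edgeR). At Casp8 and Gm37607 alike the lowest Xbp1 knockout library was replicate 2, which lay inside the range of the MLKL triple knockout for Casp8 and just above it for Gm37607. Neither call held in females only, with log2 fold changes of −1.40 for Casp8 (adjusted p = 0.585) and −1.92 for Gm37607 (adjusted p = 0.824). Against the Xbp1 knockout the double knockout, which carries the Casp8 deletion without that of Mlkl, had log2 fold changes of −0.45 for Casp8 (adjusted p = 0.214) and −2.25 for Gm37607 (adjusted p = 0.00175).

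A count of genes over a window is given here for Mlkl alone. Within 20 Mb of Mlkl 1 of 321 genes differed (0.312%, beside 0.0647% of all genes), which was Mt2 at 17.1 Mb, and within 5 and 10 Mb none of 74 and 179 did by edgeR. At an unadjusted p under 0.05 there were 9 within 5 Mb (12.2%) and 16 within 10 Mb (8.94%), beside 8.54% of all genes. Without the 2 doubted libraries Maf, 4.37 Mb from Mlkl, passed in addition. Strain differences linked to a deleted allele and effects of the deletion cannot be told apart here.

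A pair of loci on chromosome 6 gave the gene of smallest p and both of the genes that rose. They were named after their values were seen, since the rule for named genes left out clone names and changes under 2-fold. BC064078, a transcribed pseudogene (128992952 to 129008040), stood at 0.260, 1.38, 0.487, 0.225 and 0.971 CPM in MLKL triple knockout mice and at 0.731, 6.72, 10.8, 10.4 and 26.7 CPM in Xbp1 knockout mice. It fell by 3.95 ± 0.598 on the log2 scale (adjusted p = 0.00323 by edgeR), and the call held without each of the 10 libraries in turn, without the 2 doubted libraries (−4.23, adjusted p = 0.00614) and in females only (−4.37, adjusted p = 4.40e-04). Xbp1 knockout replicate 1 was at the level of the MLKL triple knockout. BC064078 was low in 2 other groups that lack Casp8, at 0.199 to 1.24 CPM in the double knockout and 0 to 0.949 CPM in the Casp8 knockout, but at 9.50 to 23.5 CPM in the TNFR1 triple knockout, which lacks Xbp1, Casp8 and TNFR1 in the epithelium by its label, and at 5.72 to 15.9 CPM in WT.

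Rhno1, a DNA damage checkpoint gene 636 kb from BC064078 (128357000 to 128362911), stood at 12.5, 17.7, 14.6, 15.9 and 12.9 CPM in MLKL triple knockout mice and at 8.28, 8.81, 8.29, 8.01 and 5.49 CPM in Xbp1 knockout mice. All MLKL triple knockout libraries lay above all Xbp1 knockout libraries, and Rhno1 rose by 0.92 ± 0.163 on the log2 scale (adjusted p = 0.0122 by edgeR). Gm26770, annotated antisense to it with 1838 shared bases, rose by 0.91 ± 0.182 (adjusted p = 0.0449). The strand setting of the counting is not stated, so these 2 cannot be told apart and may be 1 signal. The Rhno1 call ended with sex in the model (0.84, adjusted p = 0.054), in females only (0.96, adjusted p = 0.398) and in a fit of the compared groups alone (0.92, adjusted p = 0.118). Rhno1 stood at 10.4 to 15.3 CPM in the Casp8 knockout, 4.88 to 8.37 CPM in the TNFR1 triple knockout and 7.02 to 12 CPM in WT. The double knockout had log2 fold changes of 0.94 for Rhno1 (adjusted p = 8.56e-04) and −4.05 for BC064078 (adjusted p = 2.23e-04) against the same Xbp1 knockout libraries. Both loci lie 3.01 to 3.64 Mb from Tnfrsf1a, the gene of TNFR1, which is not deleted by label in either group (0.15 ± 0.130, adjusted p = 0.781).

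The other 3 genes lie elsewhere in the genome and were close to 0 in the comparison of the double with the Xbp1 knockout. Syt8, of the synaptotagmin family of vesicle fusion proteins (chromosome 7, 142434850 to 142440396), stood at 4.67, 6.10, 4.63, 6.06 and 3.40 CPM in MLKL triple knockout mice and at 16.3, 7.88, 12.8, 11.3 and 14.4 CPM in Xbp1 knockout mice (−1.32 ± 0.249, adjusted p = 0.0270 by edgeR). Tusc1, a candidate tumour suppressor (chromosome 4, 93334138 to 93335511), stood at 5.71, 4.53, 3.90, 6.06 and 7.52 CPM in MLKL triple knockout mice and at 8.28, 11.1, 9.74, 15.8 and 13.9 CPM in Xbp1 knockout mice (−1.09 ± 0.210, adjusted p = 0.0319 by edgeR). In neither gene did the groups overlap. Nbea, which encodes the vesicle traffic protein neurobeachin (chromosome 3, 55625195 to 56183701), stood at 23.1, 20.5, 16.1, 18.6 and 24.8 CPM in MLKL triple knockout mice and at 44.8, 25, 42.5, 33 and 28.8 CPM in Xbp1 knockout mice (−0.76 ± 0.155, adjusted p = 0.0465 by edgeR), and was named after its values were seen. Xbp1 knockout replicate 2 was again the lowest of its group for Syt8 and Nbea. Against the Xbp1 knockout the double knockout had −0.01, −0.12 and −0.15 for Syt8, Tusc1 and Nbea, with adjusted p of 0.983, 0.757 and 0.568.

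**Figure D3:**
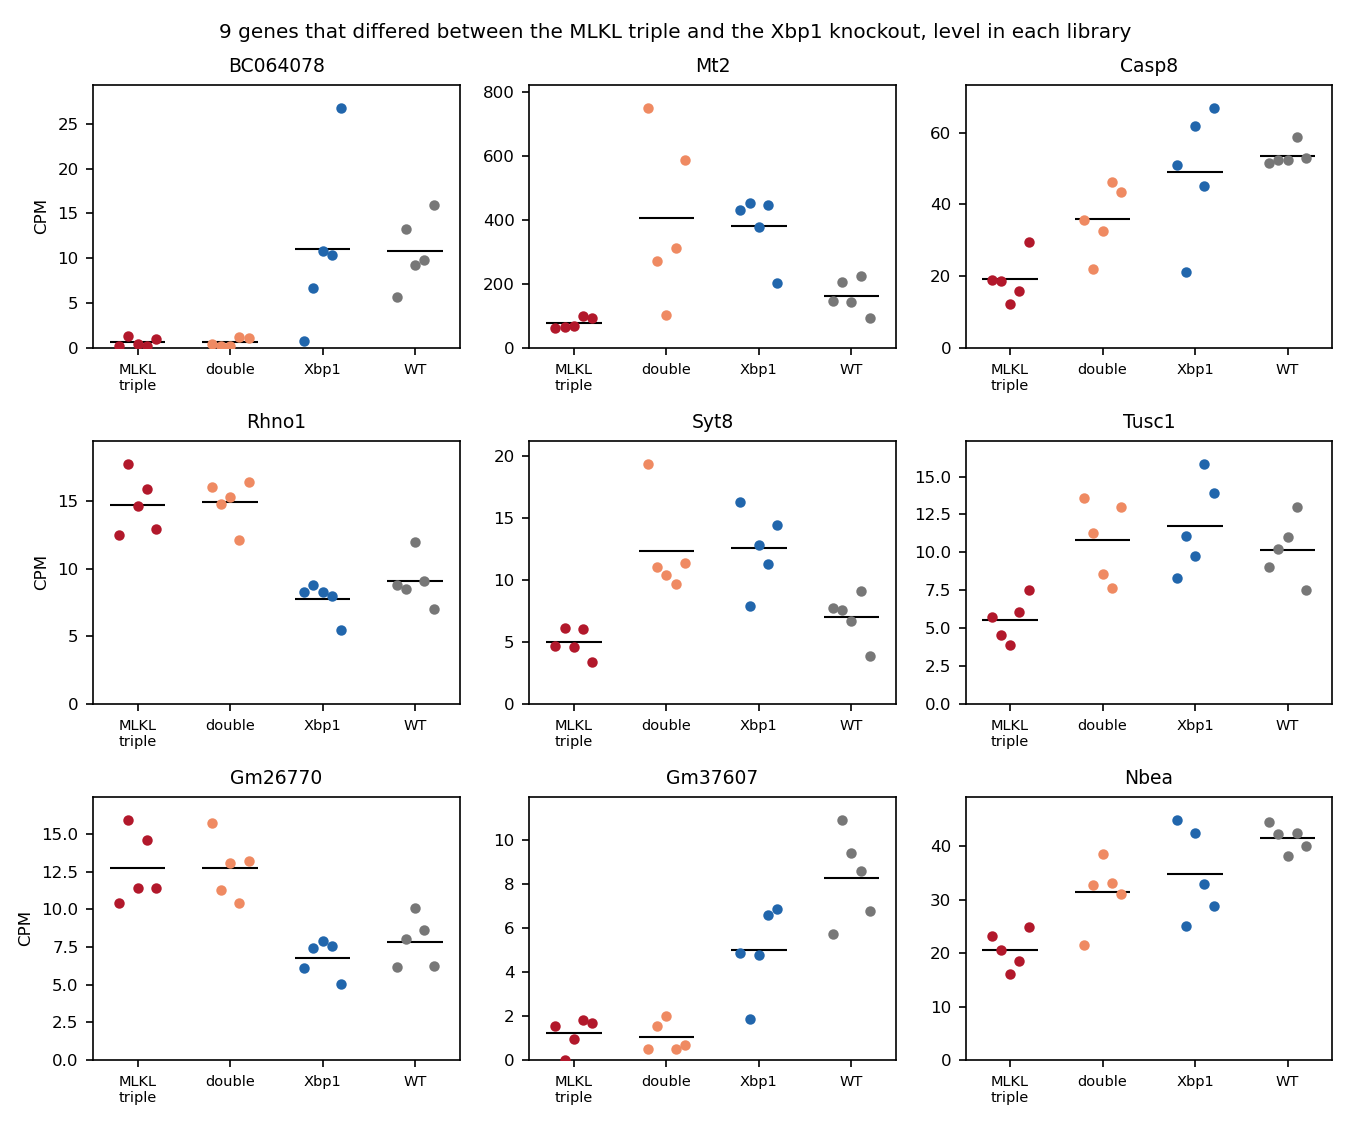
Level in CPM of 9 of the genes that differed between the MLKL triple and the Xbp1 knockout, 1 point per mouse with the group mean as a line, in the MLKL triple, double and Xbp1 knockouts and in WT, on an axis that starts at 0 in each panel. Of the 9 genes, 7 have no overlap between the MLKL triple and the Xbp1 knockout, and Casp8 and BC064078 overlap through a single Xbp1 knockout library each.

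Of the 10 genes, 7 did not overlap between the groups, which was true of 262 of all genes tested (1.69%). One gene that did not pass stood out among these 262 and was chosen after its values were seen. Crabp2, which carries retinoic acid to its nuclear receptors (chromosome 3, 87948666 to 87953376), had 3 reads in the 5 MLKL triple knockout libraries together and 193 in the 5 Xbp1 knockout libraries, a depth-scaled ratio of 0.0166 (exact 95% interval 0.00339 to 0.0491, for counting error only). By library it stood at 0, 0, 0.243, 0 and 0.485 CPM in MLKL triple knockout mice and at 8.04, 9.27, 11, 9.66 and 5.94 CPM in Xbp1 knockout mice. It missed the threshold (adjusted p = 0.147 by edgeR) in the fit of all 30 libraries, and passed when the other 4 groups were left out of the fit (adjusted p = 6.53e-05) and in females only (adjusted p = 4.40e-04). Among the other groups it stood at 0 to 0.767 CPM in the double knockout, 0 to 21.7 CPM in the TNFR1 triple knockout, 0 in all 5 Casp8 knockout libraries and 0 to 26 CPM in WT.

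The groups were next read by gene lists written from textbook knowledge. The 36 lists held 703 distinct genes, of which 581 passed the low-count filter. Of these, 1 differed between the MLKL triple and the Xbp1 knockout (0.0647% of all genes did), which was Mt2, and 142 differed between the double and the Xbp1 knockout (8.64% of all genes). For 401 of the 581 the 95% interval between the MLKL triple and the Xbp1 knockout lay within 1 of 0. This is a smaller share than the 84.2% of all genes. A called member was found in 1 of the 36 lists for the MLKL triple knockout and in 30 for the double knockout.

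**Figure D4:**
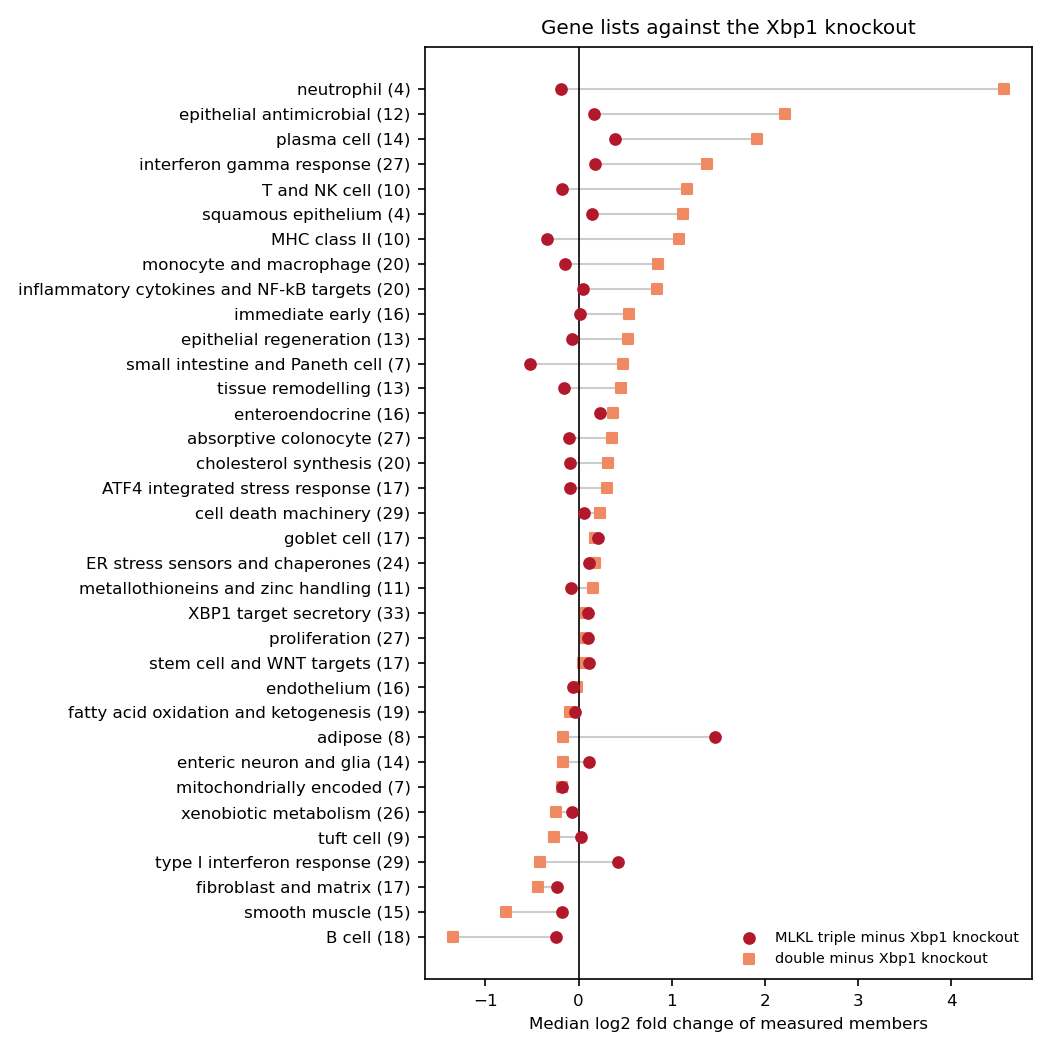
Median log2 fold change against the Xbp1 knockout of each gene list with at least 3 measured members, for the MLKL triple knockout (circles) and the double knockout (squares), with the number of measured members in parentheses. The circles lie between −0.52 and 1.46, while the squares reach 4.57 for the neutrophil list and −1.35 for the B cell list.

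None of the measured genes on the lists of inflammation and immune cells passed between the MLKL triple and the Xbp1 knockout. The 95% interval lay within 1 of 0 for 84.2% of all genes, but for a smaller share of each of these lists. It did for 1 of 12 antimicrobial, 11 of 20 cytokine and NF-kB and 4 of 10 MHC class II genes. Among cell types it did for 1 of 4 neutrophil, 14 of 20 monocyte and macrophage and 1 of 10 T and NK cell genes. For type I interferon, interferon gamma and B cell genes it was 1 of 29, 6 of 27 and 2 of 18. The other intervals reached past a 2-fold difference. Of the neutrophil list only 4 of 17 genes passed the low-count filter, and their median was −0.19, against 4.57 in the double knockout. S100a8, an abundant neutrophil protein, stood at 0, 0.197, 0, 0.449 and 1.21 CPM in MLKL triple knockout mice and at 0, 0.695, 0.414, 0.236 and 0.229 CPM in Xbp1 knockout mice, levels of a few reads at most, and at 4.60 to 152 CPM in the double knockout. The interval of the first difference was wide (95% interval −4.42 to 4.81 on the log2 scale), so that only the low level itself can be read. The epithelial antimicrobial list had a median of 0.17 with 0 of 12 measured members passing, against 2.22 and 9 higher in the double knockout. Duox2, which makes hydrogen peroxide at the epithelial surface, stood at 67.2 to 175 CPM in MLKL triple knockout mice and 53.1 to 118 CPM in Xbp1 knockout mice (0.30 ± 0.378, adjusted p = 0.856), against 206 to 334 CPM in the double knockout. Pigr, which carries antibodies across the epithelium, had 0.14 ± 0.140 (adjusted p = 0.803).

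Of 20 measured inflammatory cytokines and NF-kB targets 0 passed, with a median of 0.05, against 9 higher and a median of 0.84 in the double knockout. Nfkbia, the inhibitor that NF-kB induces, stood at 204 to 300 CPM in MLKL triple knockout mice and 232 to 300 CPM in Xbp1 knockout mice (−0.20 ± 0.150, adjusted p = 0.732). Il18, an epithelial cytokine, had 0.19 ± 0.203 (adjusted p = 0.824). The MHC class II list, which presents peptides to T cells, had a median of −0.34 with 0 of 10 passing, against 1.08 with 5 higher and 1 lower in the double knockout. H2-Aa stood at 58.2 to 253 CPM in MLKL triple knockout mice and at 102 to 220 CPM in Xbp1 knockout mice (−0.27 ± 0.357, adjusted p = 0.860), and Ctss, a protease of antigen processing, had −0.01 ± 0.113 (adjusted p = 0.986). Of the monocyte and macrophage list 0 of 20 passed (median −0.15, against 10 higher and 0.85 in the double knockout). Of the T and NK cell list 0 of 10 measured members passed (median −0.18, against 2 higher and 1.16).

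Plasma cells, which secrete the antibodies of the gut, were read from 14 genes. Igha, the constant region of the gut antibody IgA, stood at 1798, 573, 1457, 735 and 3116 CPM in MLKL triple knockout mice and at 352, 1439, 563, 882 and 557 CPM in Xbp1 knockout mice, with overlapping groups (1.02 ± 0.489, adjusted p = 0.569 by edgeR). In the double knockout it stood at 1709 to 8769 CPM. Igkc, the kappa light chain, had 0.85 ± 0.487 (adjusted p = 0.638). Over the plasma cell list 0 of 14 passed, with a median of 0.39, against 8 higher and a median of 1.91 in the double knockout. Of the 14 intervals 5 lay within 1 of 0, so that larger differences are within reach for most of the list. For B cell genes 0 of 18 passed, and the median was −0.24.

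The interferon genes were high in 1 mouse of each group. Isg15, a ubiquitin-like protein induced by type I interferon and chosen after its values were seen, stood at 14.8, 15.5, 17.3, 11.2 and 554 CPM in MLKL triple knockout mice and at 6.58, 4.63, 3.52, 5.89 and 322 CPM in Xbp1 knockout mice. The fifth mouse of each group was far above the other 4. Summed over the type I interferon list, replicate 5 held 4964 CPM in MLKL triple knockout mice and 3951 CPM in Xbp1 knockout mice, while the other 4 libraries ran from 518 to 775 and from 323 to 451 CPM and did not overlap. With all libraries 0 of 29 measured members passed and the median was 0.42. The median was −1.11 without the 2 doubted libraries, of which 1 is a replicate 5, and 0.59 over 28 members without replicate 5 of both groups, with 0 passing in either. Oasl2, an antiviral gene chosen after its values were seen, stood at 38.2 to 70.6 CPM in the first 4 MLKL triple knockout libraries and 8.49 to 19.5 CPM in the first 4 Xbp1 knockout libraries, and its log2 fold change of 2.04 without both replicates 5 did not pass (adjusted p = 0.326 by edgeR).

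The members of highest level on these lists followed the same mice. Parp14 (0.42 ± 0.370, adjusted p = 0.781) and the RNA sensor gene Ifih1 (0.17 ± 0.298, adjusted p = 0.901) were highest in replicate 5 of both groups, and their direction turned without the 2 doubted libraries (−0.07 and −0.28). So did that of B2m, the light chain of MHC class I (0.05 ± 0.424, adjusted p = 0.984; −0.71), and of its partner H2-K1 (0.23 ± 0.298, adjusted p = 0.860; −0.13). Over the interferon gamma response list 0 of 27 passed, with a median of 0.18 and of −0.64 without the 2 doubted libraries, against 10 higher and a median of 1.38 in the double knockout.

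**Figure D5:**
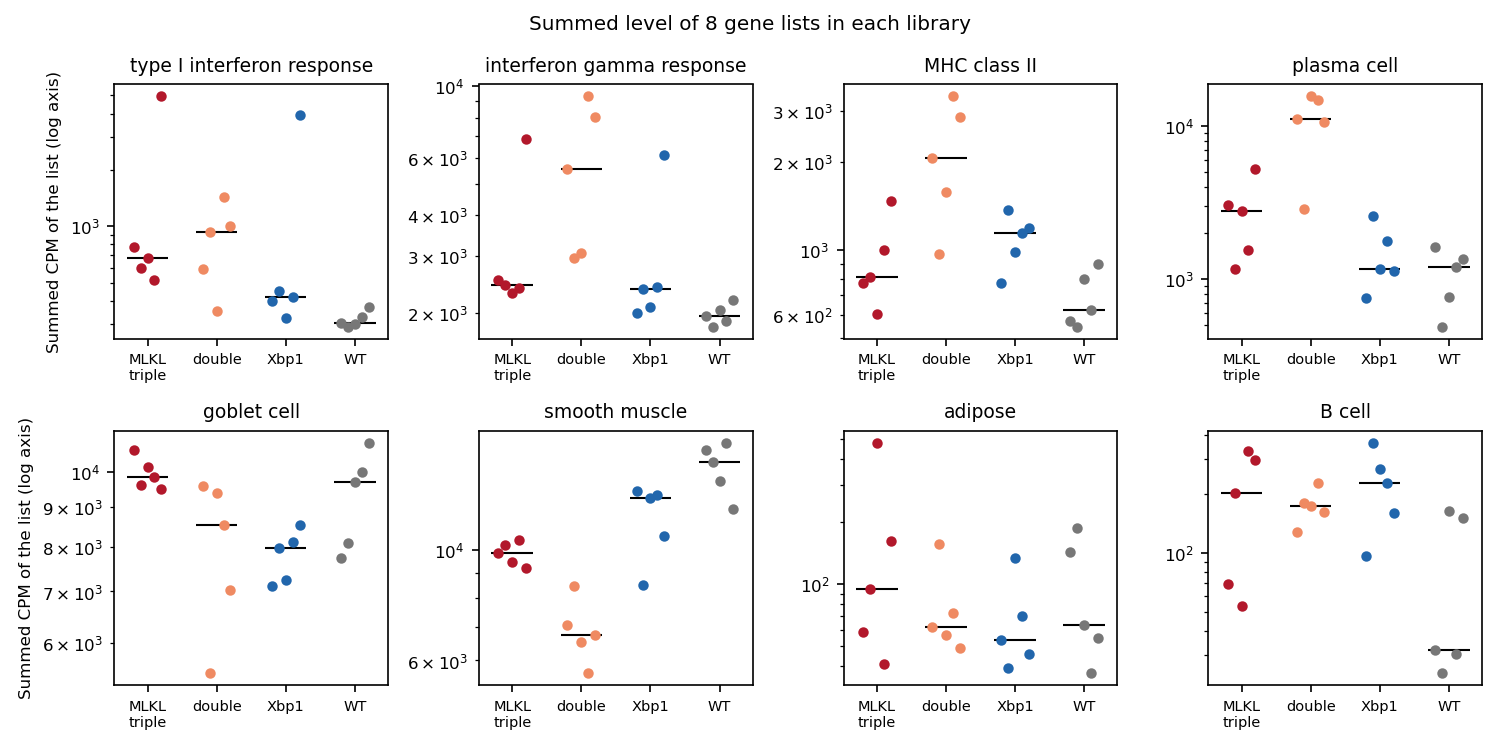
Summed CPM of 8 gene lists in each library on log axes, 1 point per mouse with the group median as a line, in the MLKL triple, double and Xbp1 knockouts and in WT. Replicate 5 of the MLKL triple and of the Xbp1 knockout stand apart on the type I interferon list at 4964 and 3951 CPM, and the goblet cell list runs from 9494 to 10687 CPM in MLKL triple knockout mice against 7122 to 8523 CPM in Xbp1 knockout mice.

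Goblet cell genes, which make and process mucus, stood slightly higher in level in the MLKL triple knockout with no gene passing. Their summed level was 10687, 9620, 10161, 9861 and 9494 CPM in MLKL triple knockout mice and 7122, 7964, 7251, 8114 and 8523 CPM in Xbp1 knockout mice, without overlap. WT libraries ran from 7733 to 10916 CPM and overlapped both groups. Of 17 measured members 0 passed, and 5 had an unadjusted p under 0.05 by edgeR and were higher, as 4.64% of all genes were. The median was 0.21, or 0.23 without the 2 doubted libraries. It was 0.15 with sex in the model and 0.15 in females only. All 17 intervals lay within 1 of 0. Clca1, a secreted mucus-processing protein, stood at 1731, 1806, 1655, 1392 and 1699 CPM in MLKL triple knockout mice and at 1173, 1076, 1237, 1236 and 1167 CPM in Xbp1 knockout mice (0.49 ± 0.181, 95% interval 0.12 to 0.86, adjusted p = 0.463 by edgeR). Zg16, a mucus lectin that binds bacteria, stood at 2939 to 3582 CPM in MLKL triple knockout mice and 2087 to 2923 CPM in Xbp1 knockout mice (0.44 ± 0.206, adjusted p = 0.557). For both genes the groups did not overlap. Muc2, the main mucin, chosen after its values were seen, stood at 585 to 765 CPM and 431 to 587 CPM in these groups, which overlapped at their ends (0.37 ± 0.191, adjusted p = 0.603). Unlike the summed level, Muc2 was higher in WT than in both groups, at 1597 to 2389 CPM. Clca1 fell in the double knockout against the same Xbp1 knockout libraries (−1.01, adjusted p = 0.00132).

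For the secretory pathway that XBP1 serves, differences were small and bounded. Of 33 measured XBP1 target secretory genes 0 passed, with a median of 0.10, and 32 intervals lay within 1 of 0. Rpn1, of the enzyme that attaches sugars to new proteins, had 0.15 ± 0.110 (adjusted p = 0.726), and Sec62, of the ER translocation channel, 0.01 ± 0.0841 (adjusted p = 0.983). Of 24 ER stress sensors and chaperones 0 passed, with a median of 0.11 and 22 intervals within 1 of 0. Hspa5, the main ER chaperone BiP, stood at 466 to 783 CPM in MLKL triple knockout mice and 315 to 644 CPM in Xbp1 knockout mice (0.23 ± 0.229, adjusted p = 0.816), and Calr had 0.05 ± 0.153 (adjusted p = 0.947). The list of the integrated stress response driven by ATF4 had a median of −0.09 with 0 of 17 passing.

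Among the genes of cell death, a list that leaves out the targeted Casp8 and Mlkl described above, 0 of 29 passed, with a median of 0.06 and 27 intervals within 1 of 0, against 6 higher and 2 lower in the double knockout. Ripk3, the kinase that activates MLKL, chosen after its values were seen, stood at 11 to 15.5 CPM in MLKL triple knockout mice and 7.55 to 17.4 CPM in Xbp1 knockout mice (0.06 ± 0.304, adjusted p = 0.972), against 21.6 to 36.6 CPM in the double knockout. Mcl1, a survival protein of the BCL2 family, had −0.13 ± 0.0967 (adjusted p = 0.737). The gasdermins C, pore-forming proteins of the colon epithelium, had the list's largest differences, all uncalled. Gsdmc4 stood at 786, 782, 1144, 1075 and 1046 CPM in MLKL triple knockout mice and at 728, 745, 662, 631 and 762 CPM in Xbp1 knockout mice, without overlap (0.45 ± 0.234, adjusted p = 0.604 by edgeR). Gsdmc3 had 0.96 ± 0.254 (adjusted p = 0.309) and Gsdmc2 0.74 ± 0.240 (adjusted p = 0.405), both chosen after their values were seen. These genes are near-identical copies, and how reads were split between them is uncertain. Gsdmc4 and Gsdmc3 fell in the double knockout against the Xbp1 knockout (−1.06 and −0.89, adjusted p = 0.00558 and 0.0325).

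Of the absorptive colonocyte list 0 of 27 passed, with a median of −0.10, against 9 higher and 2 lower in the double knockout. Slc26a3 had −0.64 ± 0.211 (adjusted p = 0.413) and Lypd8, which keeps flagellated bacteria from the epithelium, 0.14 ± 0.187 (adjusted p = 0.860). The stem cell and WNT target list had a median of 0.11 and the proliferation list one of 0.10, with 0 of 17 and 0 of 27 passing. The enteroendocrine list had 0 of 16 passing and a median of 0.23. Its hormone gene Insl5, chosen after its values were seen, stood at 134, 131, 145, 126 and 99.5 CPM in MLKL triple knockout mice and at 72.6, 97.8, 69.4, 77.7 and 86.6 CPM in Xbp1 knockout mice, without overlap (0.65 ± 0.184, adjusted p = 0.350 by edgeR). Epithelial regeneration and immediate early genes had medians of −0.07 and 0.02, against 0.53 with 5 higher and 0.54 with 6 higher in the double knockout.

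Wall tissue was read from its own lists. Smooth muscle genes summed to 9864, 10242, 9471, 10486 and 9191 CPM in MLKL triple knockout mice and to 13141, 8527, 12735, 12923 and 10698 CPM in Xbp1 knockout mice, where replicate 2 was below all MLKL triple knockout libraries. Of 15 members 0 passed, and 4 had an unadjusted p under 0.05 by edgeR and were lower, as 3.90% of all genes were. The median was −0.18, against −0.78 with 11 lower in the double knockout. It was −0.09 for the MLKL triple knockout with sex in the model and −0.06 in females only. Of 17 fibroblast and matrix genes 0 passed, with a median of −0.23, against −0.44 with 7 lower in the double knockout. The adipose list had the highest median, 1.46 over 8 measured members with 0 passing. Fabp4, a fatty acid carrier of fat cells chosen after its values were seen, stood at 25.7, 34.6, 170, 28.5 and 37.1 CPM in MLKL triple knockout mice, with replicate 3 far above the others, and at 22.4, 11.1, 26.9, 24.7 and 19.9 CPM in Xbp1 knockout mice, with overlapping groups (1.49 ± 0.430, adjusted p = 0.360 by edgeR). The part of attached fat or muscle in any result was not tested.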

How the data were processed

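Total RNA of the colon, 2 µg per mouse with an RNA integrity number above 7, was the input for libraries of 3′ ends (QuantSeq kit of Lexogen, FWD variant), according to the extraction text per the labels. Each library came from a separate mouse. The authors deposited 1 table of estimated counts per Ensembl gene, in which 11.2% of the non-zero values are not whole. Tools named are cutadapt 3.2, Subread, featureCounts 2.01 and R 4.0.0 with GRCm38, per the submitters' processing notes. Strand setting, annotation release and the division of reads between genes are not stated, so antisense, overlapping and near-identical genes are uncertain.

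Estimated counts were rounded to whole reads, which changed no library total by more than 0.00321%. The 92 spike-in entries held 0 reads and were dropped, which left 55487 genes. Symbols and positions came from GENCODE M21 (GRCm38) and matched 55227 of them, with 0.019% of reads on the others. Promoter sequences came from RefSeq (GRCm38.p6). Genes were kept by edgeR's filterByExpr, and 1 quasi-likelihood model (edgeR 4.0.16, limma 3.58.1, R 4.3.3, TMM scaling) was fitted to all 30 libraries in 6 genotype groups, so that they share 1 estimate of the spread. Its contrasts were tested with the quasi-likelihood F test and Benjamini-Hochberg adjustment over all genes tested, at 0.05. Every adjusted p is from this edgeR test. Log2 fold changes are given with SE, and 95% intervals are per gene and not adjusted. CPM is relative to each library's total. Replicate pairs differed by 6.04 to 17.8 times the counting noise in the MLKL triple knockout and by 4.41 to 13.5 times in the Xbp1 knockout, so none were merged. Single values were compared by exact permutation tests, two-sided (SciPy 1.17.1, Python 3.11.15).

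The sex of each mouse was read from Xist and from Y-linked genes, as no label gives it. Alternatives were DESeq2 1.42.0, its size factors, limma's voom with quality weights, other low-count filters, a fit of the compared groups alone, sex as a term, females only, the replicate number as a block, and each library left out in turn. Left out together were the 2 doubted libraries, the 2 with high interferon genes, and the 2 doubted with Xbp1 knockout replicate 5. These last sets, except the doubted pair, were added after seeing the data, as was females only without the doubted pair. Members, gene lists and the rule were chosen with earlier results of these data known.

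Named were the targeted genes, genes past the threshold and 2-fold (up to 10 of smallest p in each direction, without clone names), called list members, the 2 members of highest level in 12 lists, and called genes within 20 Mb of Casp8 or Mlkl. This named 33 genes, 6 of the 10 called among them. Others are marked as chosen after their values were seen, and 1 called gene is not reported here. The fitting was tested on simulated data.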

Additional observations from a re-analysis of the deposited data

Results flagged for a closer look

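Within a group of 5 mice, a library was listed here when its gap to the nearest other exceeded the critical share of the group's range (Dixon's 95% value, 0.71). By chance about 1 in 20 independent groups would pass. The groups here are not independent, as some genes were chosen after their values were seen and several interferon genes follow the same mice. Of 88 groups tested 17 passed, a share that cannot be set against that figure.

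Most of these were replicate 5 of either group. In MLKL triple knockout replicate 5, Isg15 stood at 554 CPM (11.2 to 17.3 in the other 4), Parp14 at 222 CPM (61.3 to 104), Ifih1 at 208 CPM (70.1 to 100), B2m at 2835 CPM (540 to 803) and H2-K1 at 1426 CPM (609 to 744). Its first principal component was 17.2, against −9.93 to −2.70. In Xbp1 knockout replicate 5 the same genes stood at 322 CPM for Isg15 (3.52 to 6.58 in the other 4), 176 CPM for Parp14 (47.2 to 68.6), 182 CPM for Ifih1 (62.6 to 79.2), 2560 CPM for B2m (601 to 838) and 1329 CPM for H2-K1 (486 to 599).

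That Xbp1 knockout mouse also stood apart for Mlkl at 34.1 CPM (8.04 to 14.4), Xbp1 at 65.1 CPM (51.1 to 54.8), Calr at 491 CPM (321 to 370) and Lypd8 at 7008 CPM (3747 to 4592), and was lowest for Rhno1 at 5.49 CPM (8.01 to 8.81). In MLKL triple knockout replicate 3, Fabp4 stood at 170 CPM (25.7 to 37.1 in the other 4).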

How the results depend on the processing

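The count of 10 genes between the MLKL triple and the Xbp1 knockout became 17 with DESeq2, 6 with limma voom, 3 in a fit of these 2 groups, 3 with sex as a term, 2 in females only and 3 in females without the 2 doubted libraries. It was 4 without replicate 5 of both groups, 5 without the doubted libraries and Xbp1 knockout replicate 5, and 1 to 11 with 1 library left out. DESeq2 called all 10 genes. Over their 226 values under the alternatives, 107 kept the call, 119 lost it and 0 changed sign. The count for the double knockout was 748 to 1366 with 1 library left out. No count for the double knockout is given in females only, with or without the doubted libraries. There 1 female double knockout library remained and was assumed to vary like the other groups. Those fits cannot decide whether the difference holds in females. The double knockout count was not run in a fit of the MLKL triple and Xbp1 knockouts alone. The difference on the first component was −3.41 to 4.51 with 1 library left out and −1.68 without the doubted libraries. Near Mlkl, 0 genes passed within 5 Mb and 0 within 10 Mb. The mean distance of 0.446 to the Xbp1 knockout was 0.999 over the 1000 most variable genes.

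The replicate numbers did not pair the mice: same-numbered libraries correlated at −0.0183 to 0.278, with 2 of 5 over 0.1 and 2 of 5 best with their own number. With the replicate number as a block, 5 genes passed.

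Among uncalled genes, signs turned as follows. Without the doubted libraries Sec62 had −0.05, Parp14 −0.07, Ifih1 −0.28, B2m −0.71, H2-K1 −0.13, S100a8 −0.36 and Isg15 −2.52. Without these and Xbp1 knockout replicate 5, Sec62 had −0.05 and S100a8 −0.36. Without both replicates 5, Sec62 had −0.02, B2m −0.05 and S100a8 −0.89. In females Calr had −0.06, Ifih1 −0.01, B2m −0.28 and S100a8 −0.25, and without the doubted libraries as well Sec62 −0.07, Hspa5 −0.04, Calr −0.14, Lypd8 −0.14, Duox2 −0.01, Parp14 −0.50, Ifih1 −0.59, B2m −1.21, H2-K1 −0.45, S100a8 −0.84 and Isg15 −3.48. With sex as a term Calr had −0.06 and B2m −0.07. With 1 library left out Sec62 ran from −0.04 to 0.06, Parp14 from −0.02 to 0.93, Ifih1 from −0.22 to 0.55, B2m from −0.63 to 0.63, H2-K1 from −0.06 to 0.59, Ctss from −0.10 to 0.05, S100a8 from −0.80 to 0.64 and Isg15 from −2.22 to 4.57. The cause was not tested.

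At about 4 reads to 1 CPM, genes of a few reads such as S100a8 had intervals too wide to read. All MLKL triple knockout mice were female and 2 Xbp1 knockout mice male.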

Other observations

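Genes of detoxification and oxidant defence gave values that belong to none of the groups above. Of the 26 measured genes of xenobiotic metabolism 0 passed, with a median of −0.07. At an unadjusted p under 0.05 by edgeR 4 were lower, as 3.90% of all genes were, and 0 were higher. Nqo1, a quinone reductase that lies 3.92 Mb from Mlkl, stood at 7.27, 8.46, 9.50, 10.8 and 6.07 CPM in MLKL triple knockout mice and at 24.9, 14.6, 19.5, 11.5 and 10.1 CPM in Xbp1 knockout mice (−0.93 ± 0.252, adjusted p = 0.324 by edgeR). Aldh3a1, an aldehyde dehydrogenase, stood at 0.519 to 2.02 CPM in MLKL triple knockout mice and at 3.2 to 8.53 CPM in Xbp1 knockout mice, without overlap (−2.03 ± 0.524, adjusted p = 0.309 by edgeR). In the double knockout Aldh3a1 fell against the same Xbp1 knockout libraries (−3.03, adjusted p = 0.00194). These genes were chosen after their values were seen.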
